A study of Mus musculus with 12 samples.

Results

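Bone marrow-derived macrophages (BMDMs) from wild-type (WT) mice were compared after 24 hours with particulate matter (PM) at 20 µg/cm2 and after vehicle, by RNA-sequencing. These 4 libraries, 2 labelled WT Control and 2 labelled WT PM, were chosen by their labels from 12 in the series. BMDMs are macrophages grown in culture from marrow cells with M-CSF, the growth factor that drives macrophage differentiation, and the PM was an urban dust standard. The WT strain is given as C57BL/6 in the labels and as C57BL/6NJ in the study's methods, and vehicle was PBS. The other libraries came from WT cells that received 4-octyl itaconate before PM and from Acod1-/- cells with the same treatments. They enter here through a shared estimate of the spread between duplicates, and the 4 Acod1-/- libraries with vehicle or PM (strain C57BL/6NJ-Acod1em1(IMPC)J/J, a germline knockout of Acod1) also through a comparison of the PM effect between genotypes. No source used here says whether duplicates came from separate mice or separate cultures, so the p-values measure the spread between these libraries, which may be technical.

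Macrophages take up inhaled particles, whose metals, organic compounds and microbial residues reach several sensors. Toll-like receptors and interleukin-1 receptors act through the transcription factor NF-κB, which switches on chemokines, cytokines and its own inhibitors. Type I interferon signals through transcription factors of the IRF family and others to antiviral genes. Electrophiles and oxidants release NRF2 (encoded by Nfe2l2) from KEAP1 to switch on glutathione, quinone and heme detoxification, aromatic hydrocarbons bind the aryl hydrocarbon receptor, and zinc or cadmium acts through MTF1 on metallothioneins.

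The vehicle libraries held 35316517 and 36817898 counts and the PM libraries 34831826 and 35022765. Of 48795 genes listed, 10980 had more than 1.5 counts per 1000000 counts of the library (CPM) in at least 2 of the 4 libraries and were tested. All 10 macrophage markers checked were tested and none passed the threshold of 2-fold at an adjusted p of 0.05, with Csf1r, the M-CSF receptor, at 1042 and 997 CPM after vehicle and 1576 and 1485 CPM after PM, and Lyz2, a lysozyme, at 10064 and 9957 against 17647 and 21234 CPM (log2 fold change 0.96, but 1.08 and past the 2-fold threshold without PM replicate 1). No listed marker of T cells, NK cells, dendritic cells, mast cells, erythroid cells or stromal cells passed the filter. The T cell genes Cd3d, Cd3e and Cd3g, the erythroid genes Hba-a1 and Hbb-bs and the mast cell gene Cpa3 had 0 counts in all 4 libraries. Other members of these lists had counts, some higher and some lower after PM. Cd4 had 29 and 23 after vehicle and 37 and 46 after PM, and Lck had 10 and 8 against 14 and 25. The NK cell gene Klrb1c had 15 and 18 against 7 and 2, and the stromal gene Col3a1 had 17 and 10 against 6 and 4. The B cell gene Cd79b passed the filter with 101 and 140 against 85 and 140 (log2 fold change 0.04, not called). The PM duplicates differed more from each other than the vehicle duplicates did, with a chi-square per degree of freedom of 27.3 against 3.0 over genes with at least 20 counts, where 1 is what counting error alone gives.

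PM changed 419 of the 10980 tested genes (3.82%) by at least 2-fold at an adjusted p within 0.05 (quasi-likelihood test of edgeR, Benjamini-Hochberg adjustment). These differentially expressed genes (DEGs) were 302 with higher levels after PM (2.75% of tested genes) and 117 with lower levels (1.07%). Without the fold threshold 2744 genes (25.0%) passed, 1373 of them higher and 1371 lower, 12.5% of tested genes each way. The counts of list members below are to be read beside these shares. Increases of at least 2 on the log2 scale numbered 109 and decreases of that size 10. In all 419 DEGs the vehicle and PM libraries did not overlap, which was also so for 72.3% of all tested genes. Of the higher DEGs 88 passed the filter on low values only through both PM libraries, and of the lower DEGs 29 only through both vehicle libraries. Such genes had to differ, so counts and medians over the tested members of a list are descriptions. The median log2 fold change over all tested genes was 0.01. With scaling to total counts in place of TMM (trimmed mean of M-values, which sets the typical gene to no change) that median was -0.08, and that scaling made its own set of calls, 260 higher and 159 lower DEGs. The exons of 111 DEGs overlap those of another gene, and since strand handling is not given in the sources used here their reads cannot be assigned with certainty.

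**Figure D1:**
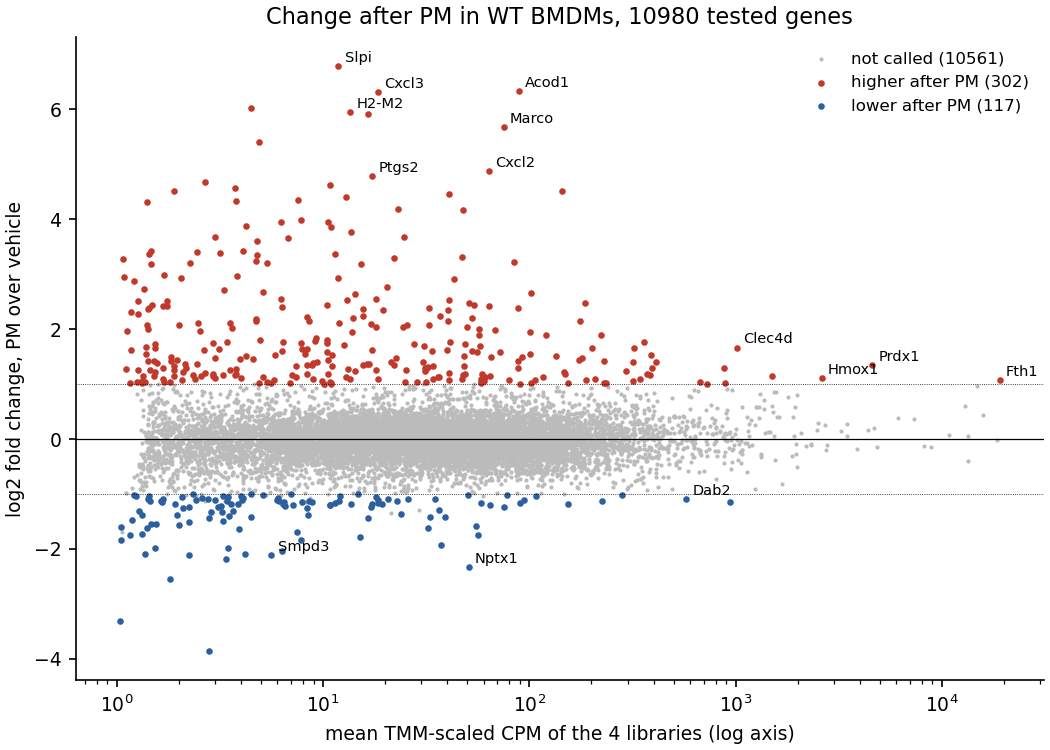
Each of the 10980 tested genes is plotted by its mean TMM-scaled CPM over the 4 libraries (log axis) and its log2 fold change, PM over vehicle; red points are the 302 higher DEGs, blue points the 117 lower DEGs, grey points the other genes, and dotted lines mark a 2-fold change. Increases reach 6.79 on the log2 scale (Slpi), while among genes with a mean of at least 5 CPM the largest decrease is -2.34 (Nptx1).

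Among genes with a mean of at least 5 CPM the largest increases were in Slpi, Acod1, Cxcl3 and H2-M2. The study names Acod1 as the gene most upregulated by PM. Here the fold of Slpi, which rests on 8 counts in each vehicle library, was larger. The study used DESeq2 after its own filter on low expression, so these rankings come from unlike methods. Slpi, a secreted inhibitor of neutrophil elastase, was at 0.214 and 0.204 CPM after vehicle and at 19.9 and 27.1 CPM after PM. Both PM libraries were far above both vehicle libraries, a difference of 6.79 ± 0.43 (SE) on the log2 scale with an adjusted p of 3.9e-06. Acod1, the enzyme that makes itaconate from the TCA cycle intermediate cis-aconitate, went from 1.85 and 2.5 to 181 and 170 CPM, a change of 6.33 ± 0.27. Cxcl3, a neutrophil chemokine, had 0.455 and 0.459 CPM after vehicle and 38.1 and 34.9 CPM after PM (6.31 ± 0.43). H2-M2, a non-classical MHC class I gene, had 0.321 and 0.535 against 30.7 and 22.7 CPM (5.94 ± 0.26). In each of these genes the difference between the groups was far larger than that between duplicates. Slpi shares exonic bases with the microRNA gene Mir7678. In bulk RNA a change in the number of cells that make a message and a change in its amount per cell cannot be told apart.

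Several receptors on the cell surface were among the 12 largest increases of such genes. Fpr1, a receptor for bacterial formyl peptides, was at 0.455 and 0.612 CPM after vehicle and 32.4 and 32.6 CPM after PM (log2 fold change 5.91 ± 0.16), and its relative Fpr2, which overlaps Fpr3, at 0.643 and 1.02 against 21.8 and 19.6 CPM (4.63 ± 0.23). Marco, a scavenger receptor through which macrophages bind unopsonised particles and bacteria, was at 3.11 and 2.63 CPM against 137 and 157 CPM (5.68 ± 0.16). Clec4e (Mincle), a C-type lectin that binds mycobacterial glycolipid and products of dead cells, was at 11.8 and 12.3 against 281 and 268 CPM (4.51 ± 0.18). Gpr84, a receptor for medium-chain fatty acids, was at 1.07 and 1.25 against 24.2 and 24.9 CPM (4.40 ± 0.28). None of these receptors had overlapping groups, and the 2 PM libraries lay close together in each.

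**Figure D2:**
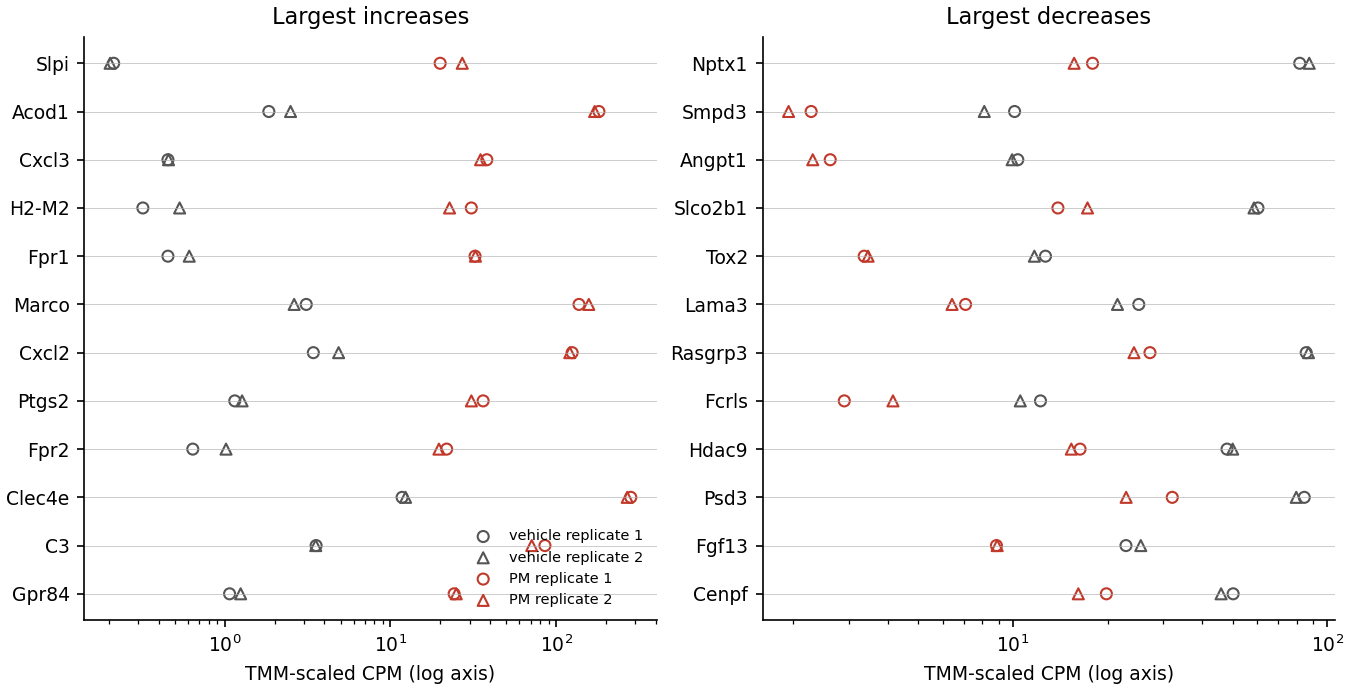
TMM-scaled CPM (log axis) in each of the 4 libraries for the 12 largest increases (left) and the 12 largest decreases (right) among DEGs with a mean of at least 5 CPM; grey symbols are vehicle, red symbols PM, circles replicate 1 and triangles replicate 2. The genes were picked among DEGs without overlap between groups, so their separation follows from that choice. The margins are wide on the left (Acod1 at 1.85 and 2.5 against 181 and 170 CPM) and smaller on the right (Cenpf at 50.2 and 46.0 against 19.8 and 16.1 CPM).

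The CXC chemokines recruit neutrophils and T cells. Of 15 listed, 8 passed the filter, and Cxcl1, Cxcl3, Cxcl10 and Ppbp did so only through the PM libraries. The DEGs were these 4 with Cxcl2, Cxcl16 and Pf4, all higher, while Cxcl14 did not pass the test (log2 fold change -0.09), and the median of the 8 was 3.31 against 0.01 over all tested genes. Ppbp, Pf4 and Cxcl14 are named after their values were seen. Cxcl2 rose from 3.43 and 4.87 CPM to 125 and 121 CPM, and Cxcl1 from 0.161 and 0.102 to 8.75 and 8.82 CPM, a 65.5-fold difference that rests on few counts after vehicle. Cxcl10, an interferon-inducible T cell chemokine whose exons overlap Art3, rose from 0.857 and 1.12 to 9.57 and 15.5 CPM. Of 10 CC and CX3C chemokines only Ccl5 (13.6-fold higher) and Ccl28 (3.02-fold lower) were DEGs, and the list's median was 0.13. The most abundant CC chemokines, Ccl9 and Ccl6, were at 947 and 954 against 1651 and 1691 CPM and at 1039 and 1034 against 1475 and 1621 CPM, both under the 2-fold threshold (adjusted p = 2.0e-05 and 3.2e-04).

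Among 21 interleukins and other cytokines 5 rose and 1 fell. Il1a and Il1b, the inflammatory interleukin-1 cytokines, rose from 1.12 and 1.43 to 20.3 and 19.5 CPM and from 0.669 and 0.841 to 11.5 and 12 CPM, each 15.5-fold. Tnf rose 5.78-fold, from 12.1 and 12 to 69.1 and 70.4 CPM. Il18bp, the decoy that neutralises interleukin-18, rose 3.38-fold, while Il1rn, the interleukin-1 receptor antagonist, was at 154 and 160 against 262 and 251 CPM (log2 fold change 0.71 ± 0.07). Csf1, which encodes M-CSF, rose 2.02-fold and was no longer a DEG without vehicle replicate 1 (log2 fold change 0.93) or without PM replicate 1 (0.998), or with total count scaling (0.92). Il6 stayed below the filter with 0 and 0 counts after vehicle and 16 and 17 counts after PM, as did Nos2 with 2 and 0 against 12 and 11 counts; both are named after their values were seen. In the inflammasome and interleukin-1 pathway list 1 of 18 members rose (5.56%), beside 2.75% of all tested genes. This was Casp4, the caspase that senses cytosolic lipopolysaccharide (2.38-fold).

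Of 23 NF-κB subunits and feedback inhibitors 10 rose and none fell, with a median log2 fold change of 0.92. Socs3, an inhibitor of cytokine receptor signalling, rose 10.7-fold and Traf1, a TNF receptor adaptor, 9.23-fold. Nfkbie and Nfkbia, which encode IκB proteins that hold NF-κB in the cytosol, rose from 8.73 and 10.4 to 39.1 and 40.0 CPM and from 39.9 and 42.7 to 153 and 167 CPM. The subunit gene Nfkb1 was at 82.9 and 82.9 against 103 and 92.7 CPM, a log2 fold change of 0.24 ± 0.08. Of 19 AP-1 and immediate early factors Ier3 (4.19-fold) and Batf (2.15-fold) rose and Egr1 fell (2.29-fold), the last at -1.0 on the log2 scale and just short of the threshold without PM replicate 1.

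The promoters of Cxcl2, Cxcl3 and Nfkbia are printed because all 3 genes were among the largest changes of their lists and hold GGG and TTCC with any 3 bases between them, a form of the NF-κB site, on either strand. They are RefSeq sequences of GRCm38.p6 from 250 bases before to 50 bases after the gene start, 5′ to 3′ along the gene, with the match in capitals, at chr5:90903649-90903948 on the plus strand, chr5:90785851-90786150 on the plus strand and chr12:55492598-55492897 on the minus strand. In Cxcl2 and Cxcl3 the first capital run holds 2 overlapping matches.
Cxcl2: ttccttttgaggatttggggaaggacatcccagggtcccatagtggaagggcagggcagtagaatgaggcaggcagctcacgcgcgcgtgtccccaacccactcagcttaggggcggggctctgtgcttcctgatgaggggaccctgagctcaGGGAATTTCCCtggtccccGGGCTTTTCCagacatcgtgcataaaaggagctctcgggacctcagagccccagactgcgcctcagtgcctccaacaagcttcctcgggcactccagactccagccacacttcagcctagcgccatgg
Cxcl3: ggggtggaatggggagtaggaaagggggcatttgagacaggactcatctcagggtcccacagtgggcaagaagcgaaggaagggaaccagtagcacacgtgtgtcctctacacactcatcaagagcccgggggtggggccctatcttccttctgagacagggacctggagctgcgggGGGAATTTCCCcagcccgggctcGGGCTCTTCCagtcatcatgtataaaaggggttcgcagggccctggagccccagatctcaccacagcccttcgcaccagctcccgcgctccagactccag
Nfkbia: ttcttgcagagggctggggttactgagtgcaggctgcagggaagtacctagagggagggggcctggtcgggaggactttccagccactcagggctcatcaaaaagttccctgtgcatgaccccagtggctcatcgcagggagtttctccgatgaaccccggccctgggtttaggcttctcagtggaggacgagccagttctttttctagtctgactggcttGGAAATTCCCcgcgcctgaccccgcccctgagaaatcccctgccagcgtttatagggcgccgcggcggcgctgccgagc
The letters were present in 4 of 6 DEGs of the CXC chemokine list with a RefSeq promoter and in 4 of 9 of the NF-κB list, beside 7.49% of 8683 tested genes with a promoter and 5.56% of all 32851 promoters. A match is a run of letters and not a measured binding site.

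Surface receptors are given by family. Of 14 scavenger receptors 3 rose, Marco, Olr1 (LOX-1, a receptor for oxidised lipoprotein; 0.348 and 0.357 against 8.24 and 6.17 CPM) and Cxcl16, a membrane-bound chemokine that also binds oxidised lipid (28.1 and 26.9 against 103 and 114 CPM), and 1 fell, Stab2. Stab2 was at 8.46 and 7.85 against 4.19 and 3.35 CPM, and was not a DEG without PM replicate 2 (log2 fold change -0.96). The most abundant scavenger receptor, Cd36, was at 8732 and 8372 against 8039 and 7537 CPM and did not pass the test (-0.14 ± 0.07, adjusted p = 0.17). Of 17 C-type lectin receptors 6 rose and 1 fell, with Clec4n (Dectin-2, a fungal mannan receptor) rising from 5.57 and 4.54 to 88.0 and 93.7 CPM and Clec4d, a partner of Clec4e, from 502 and 469 to 1437 and 1642 CPM. The Clec4 genes, like the Fpr genes, are close paralogs, and how reads that map to several places were counted is not given in the sources used here.

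Toll-like receptors showed no common direction, with a median log2 fold change of -0.05 and 1 of 17 members in each direction. Tlr2, the receptor for bacterial lipoproteins, rose from 16.8 and 16.7 to 92.1 and 90.5 CPM, with groups far apart and duplicates nearly equal. Tlr9, the receptor for unmethylated DNA, was lower at 5.2 and 4.46 against 1.99 and 1.44 CPM (-1.49 ± 0.32, adjusted p = 0.0093), but not at adjusted p of 0.05 without vehicle replicate 1 (adjusted p = 0.069) or PM replicate 2 (0.075). In the list of Fcγ receptors and phagocytic integrins 1 of 17 members, the Fc receptor-like gene Fcrls, fell, and 4 were DEGs without PM replicate 1. Fpr1 and Fpr2 were the only DEGs among 20 chemoattractant and purinergic receptors.

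Of 11 secreted defence proteins, which include acute-phase products, 6 rose and none fell, with a median log2 fold change of 1.63; 5 were DEGs without PM replicate 2. Of the 11 tested members 5, among them 4 of the 6 DEGs, passed the filter only through the PM libraries and so had to be higher. Hp (haptoglobin) was at 0.643 and 0.765 against 12.3 and 16.6 CPM. Saa3, an acute-phase apolipoprotein of macrophages, was at 2.46 and 2.37 against 42.7 and 45.1 CPM. Lcn2, which binds bacterial siderophores, was at 0.455 and 0.586 against 2.05 and 3.60 CPM. C3, the central complement component, rose 22-fold, from 3.56 and 3.54 to 85.4 and 71.1 CPM, and C1ra 2.26-fold, while C1qb, an abundant complement gene of macrophages, was at 872 and 884 against 670 and 847 CPM (-0.21 ± 0.09, adjusted p = 0.11). These 2 rises were the only DEGs among 10 complement genes.

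Of 18 genes of prostaglandin and leukotriene synthesis 4 rose and 1 fell. Ptgs2 (COX-2), the inducible cyclooxygenase, rose from 1.15 and 1.27 to 36.2 and 30.8 CPM, and Ptges, which makes prostaglandin E2 from its product, from 4.04 and 3.72 to 22.9 and 21.8 CPM. Pla2g7, which hydrolyses platelet-activating factor, and Ptgir, the prostacyclin receptor, rose 3.39-fold and 3.33-fold. Of 16 matrix proteases and inhibitors 4 rose and 1 fell. Serpinb2, an inhibitor of plasminogen activators, was at 0.295 and 0.306 against 8.32 and 6.06 CPM, and Mmp14, a membrane-bound collagenase, at 0.911 and 0.943 against 15.8 and 13.7 CPM. Mmp12, the macrophage elastase, was already at 10151 and 10392 CPM after vehicle and at 15397 and 15672 CPM after PM, a log2 fold change of 0.60 ± 0.06.

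Mmp8, the neutrophil collagenase, was at 55.9 and 57.1 CPM after vehicle and 328 and 301 CPM after PM, and S100a8, a neutrophil alarmin also made by monocytes, at 4.47 and 3.65 against 9.95 and 15.3 CPM. Both are on the neutrophil marker list, 2 of 12 members of which were tested; both rose, and 1 of them was a DEG without PM replicate 2. The summed level of the list was 62.7 and 63.6 CPM after vehicle and 341 and 320 CPM after PM, nearly all of it Mmp8. The neutrophil-defining genes Ly6g and Retnlg had 0 counts in all 4 libraries, and Mpo, Elane and Camp had at most 5 counts in any. Further members below the filter had more, S100a9 with 35 and 43 counts after vehicle and 44 and 75 after PM, Ngp with 17 and 44 against 32 and 37, and Ltf with 25 and 19 against 25 and 25. The part of neutrophils in these results was not tested.

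The list with the most DEGs was that of interferon-stimulated effectors, of which 32 of 45 tested members rose and none fell, with 42 higher at adjusted p of 0.05 alone and a median log2 fold change of 1.41. Ifit1 and Ifit3, which bind or block foreign RNA, rose from 3.94 and 4.21 to 36.4 and 43.4 CPM and from 2.68 and 3.31 to 23.8 and 31.0 CPM. Ifit3b, a near copy of Ifit3 whose reads may be shared with it, rose 7.89-fold and Slfn1, a Schlafen gene that slows cell growth, 9.17-fold. Gbp2, a GTPase that coats vacuoles of intracellular microbes, rose from 15.0 and 14.7 to 69.7 and 61.7 CPM. Of 21 genes of interferon signalling and IRFs 4 rose, among them Irf7, the factor that amplifies type I interferon (13 and 13.3 against 65.7 and 68.8 CPM), and Usp18, which removes ISG15 from proteins and dampens the receptor (3.70 and 4.16 against 24.9 and 24.2 CPM). The median of this list was 0.06, and at adjusted p of 0.05 alone 8 members were higher and 3 lower.

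The promoters of Ifit1 and Ifit3 each hold 2 copies of GAAA and GAAA with any 2 bases between them, the core of the interferon-stimulated response element, shown in capitals as its reverse complement. They lie at chr19:34640639-34640938 on the plus strand and chr19:34583279-34583578 on the plus strand (GRCm38.p6, RefSeq).
Ifit1: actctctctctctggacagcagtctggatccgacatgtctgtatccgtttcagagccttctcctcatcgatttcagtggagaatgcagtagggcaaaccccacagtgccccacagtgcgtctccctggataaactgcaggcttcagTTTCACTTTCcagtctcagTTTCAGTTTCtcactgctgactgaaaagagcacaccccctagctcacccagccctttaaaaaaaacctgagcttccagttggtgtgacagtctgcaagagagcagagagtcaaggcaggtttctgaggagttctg
Ifit3: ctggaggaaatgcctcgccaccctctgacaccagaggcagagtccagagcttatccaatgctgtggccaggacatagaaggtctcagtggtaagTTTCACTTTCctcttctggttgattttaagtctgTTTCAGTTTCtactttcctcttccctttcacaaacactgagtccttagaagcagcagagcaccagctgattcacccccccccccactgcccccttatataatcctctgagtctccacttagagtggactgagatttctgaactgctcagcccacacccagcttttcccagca
Of the 27 DEGs of the interferon-stimulated list with a RefSeq promoter, 16 held the letters on either strand, and 8 of 10 tested members that were not DEGs did too, beside 3.94% of tested genes and 3.44% of all promoters.

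Of 22 MHC class I and immunoproteasome genes 18 were higher at adjusted p of 0.05 alone but 3 reached 2-fold, H2-Q6, Psme2 and H2-K1, and the median log2 fold change was 0.73; without PM replicate 1 there were 4 such DEGs and without PM replicate 2 there was 1. H2-K1, a classical class I heavy chain, was at 487 and 484 against 916 and 1031 CPM, on the threshold itself (1.0 ± 0.11), and was not a DEG without vehicle replicate 2 (0.9992) or PM replicate 2 (0.92), nor by DESeq2 (0.99 with 12 libraries), with RLE scaling (0.99) or with total count scaling (0.92); Psme2 was not without PM replicate 2 (0.94). Of all tested genes 12.5% were higher at adjusted p of 0.05 alone. H2-M2, among the largest increases above, is not on this list. B2m, the shared light chain, was at 1449 and 1440 against 2391 and 2650 CPM. Calr, a chaperone of class I loading, was at 1331 and 1345 against 2165 and 2359 CPM. In the class II list 2 of 11 rose, Cd74, the invariant chain, at 4.58 and 4.72 against 10.4 and 9.89 CPM, and H2-Aa at 1.34 and 1.17 against 2.62 and 3.20 CPM, the latter with an adjusted p of 0.059 without vehicle replicate 2.

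Of 31 tested members of the NRF2 pathway 11 rose, none fell, and 27 were higher at adjusted p of 0.05 alone, with a median log2 fold change of 0.87. Nqo1, a quinone reductase, rose from 3.72 and 3.47 to 46.8 and 44.8 CPM, and Slc7a11, the cystine importer that feeds glutathione synthesis, from 9.13 and 7.98 to 101 and 70.5 CPM. Gclm, the regulatory subunit of the rate-limiting enzyme of glutathione synthesis, rose from 163 and 148 to 497 and 480 CPM, and Ptgr1, which reduces reactive aldehydes, 2.77-fold. Hmox1 (heme oxygenase-1), at 1622 and 1682 against 3363 and 3784 CPM, was among the most abundant (1.11 ± 0.09). Nfe2l2 itself was at 297 and 301 against 414 and 420 CPM (0.48 ± 0.06, adjusted p = 2.2e-04), under 2-fold.

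Enzymes that use glutathione or thioredoxin rose in part. Of 27 glutathione transferases and turnover genes 7 rose and none fell, led by Gsta3 (10.8 and 9.46 against 70.8 and 80.7 CPM), Gstm2 (5.30-fold), Mgst2 (4.62-fold) and Ggt5 (3.16-fold). The Gsta and Gstm genes have near-identical copies between which reads may have been divided. Of 23 thioredoxin, peroxiredoxin and superoxide genes 7 rose. Sod2, the mitochondrial superoxide dismutase, rose from 63.2 and 65.4 to 290 and 282 CPM, and the peroxiredoxins Prdx6, Prdx5 and Prdx1 rose 3.15-fold, 2.63-fold and 2.53-fold, Prdx1 from 2689 and 2526 to 6171 and 7033 CPM. Cat (catalase) was just under 2-fold at 666 and 593 against 1217 and 1159 CPM and passed the threshold only without vehicle replicate 1 (1.0), and Txnip, a thioredoxin inhibitor, was at 987 and 940 against 827 and 808 CPM (-0.24 ± 0.06). Of 17 NADPH-generating genes Me1 (malic enzyme; 3.12-fold) and Taldo1 (transaldolase; 2.05-fold) rose, Taldo1 not without PM replicate 2 (0.89) or with total count scaling (0.95).

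The promoters of Gclm and Gsta3 hold 1 match each to TGACNNNGC, the core of the antioxidant response element bound by NRF2, in Gclm as the reverse complement. They lie at chr3:122245307-122245606 on the plus strand and chr1:21240335-21240634 on the plus strand (GRCm38.p6, RefSeq).
Gclm: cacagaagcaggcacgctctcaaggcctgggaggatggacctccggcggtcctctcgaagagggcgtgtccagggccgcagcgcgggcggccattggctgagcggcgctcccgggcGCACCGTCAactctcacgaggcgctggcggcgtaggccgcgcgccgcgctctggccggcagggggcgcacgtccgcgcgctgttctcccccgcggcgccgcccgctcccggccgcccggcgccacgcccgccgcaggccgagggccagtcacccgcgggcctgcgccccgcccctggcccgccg
Gsta3: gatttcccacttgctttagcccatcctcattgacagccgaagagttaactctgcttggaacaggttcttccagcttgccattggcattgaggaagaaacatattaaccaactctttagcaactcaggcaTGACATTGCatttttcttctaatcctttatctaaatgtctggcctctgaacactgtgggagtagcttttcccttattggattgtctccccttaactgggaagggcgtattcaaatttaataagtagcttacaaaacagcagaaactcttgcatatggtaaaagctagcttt
These letters are common, in 17.4% of tested genes with a promoter and 12.4% of all promoters, and 3 of 10 DEGs of the NRF2 list and 7 of its 17 other members with a promoter held them, as did 1 of 6 DEGs of the glutathione list. Likewise TTGCGTG, a form of the xenobiotic response element, was in 0 of 5 DEGs and 0 of 5 other members of the aryl hydrocarbon receptor list (2.08% of tested genes), and the heat shock element (GAA, TTC and GAA with any 2 bases between them) in 0 of 2 DEGs and 4 of 21 other tested members of the heat shock list (0.576%), both strands searched.

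Of 12 genes of the aryl hydrocarbon receptor pathway 5 rose. Ahrr, the receptor's repressor and one of its own targets, rose from 4.74 and 4.92 to 18.6 and 13.8 CPM, and Lpcat2, a lysophospholipid acyltransferase, from 22.8 and 25.4 to 87.6 and 92.3 CPM, while Nqo1 and Serpinb2 belong to other lists as well. The cytochromes that usually mark the pathway stayed below the filter. Cyp1a1 had 0, 0, 1 and 0 counts, and Cyp1b1 had 2 and 1 after vehicle and 24 and 18 after PM; both are named after their values were seen.

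Genes of metal handling rose in a narrow set. Of 19 metallothioneins and zinc transporters 4 rose, Mt1, Mt2, Mt3 and the zinc importer Slc39a4, and the list's median was -0.03. Mt1 and Mt2, small cysteine-rich proteins that bind zinc, copper and cadmium, were at 93.2 and 96.1 against 296 and 404 CPM and at 15.9 and 16.7 against 128 and 176 CPM. In both the PM duplicates differed from each other but neither came near the vehicle libraries. Of 20 iron handling genes 6 rose, with a median of 0.48; 4 were DEGs without PM replicate 2 and 3 after correction for length. They included Cp (ceruloplasmin; 4.01-fold) and Spic, the transcription factor of heme-recycling macrophages (3.41-fold). Ftl1, the ferritin light chain, was at 1134 and 1103 against 1450 and 1802 CPM (0.54 ± 0.11).

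The promoters of Mt1 and Mt2 hold 3 and 4 matches to TGCACNC or TGCGCNC, the metal response element bound by MTF1, on either strand. They lie at chr8:94178839-94179138 on the plus strand and chr8:94172368-94172667 on the plus strand (GRCm38.p6, RefSeq).
Mt1: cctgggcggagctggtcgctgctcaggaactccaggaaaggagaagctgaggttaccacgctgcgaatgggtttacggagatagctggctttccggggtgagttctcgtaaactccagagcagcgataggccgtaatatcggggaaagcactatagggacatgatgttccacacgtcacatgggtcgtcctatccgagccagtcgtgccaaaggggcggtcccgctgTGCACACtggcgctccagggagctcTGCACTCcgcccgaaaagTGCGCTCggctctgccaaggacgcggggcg
Mt2: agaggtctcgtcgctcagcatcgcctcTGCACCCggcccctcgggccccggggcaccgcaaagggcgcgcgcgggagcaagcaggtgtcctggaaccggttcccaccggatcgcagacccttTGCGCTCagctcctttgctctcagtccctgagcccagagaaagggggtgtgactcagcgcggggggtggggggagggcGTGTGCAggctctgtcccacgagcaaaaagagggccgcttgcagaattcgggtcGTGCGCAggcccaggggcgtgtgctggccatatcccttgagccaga
So short a motif occurs in 40.4% of tested genes with a promoter and 25.7% of all promoters. All 3 DEGs of the list with a promoter held it, as did 5 of 13 other tested members.

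**Figure D3:**
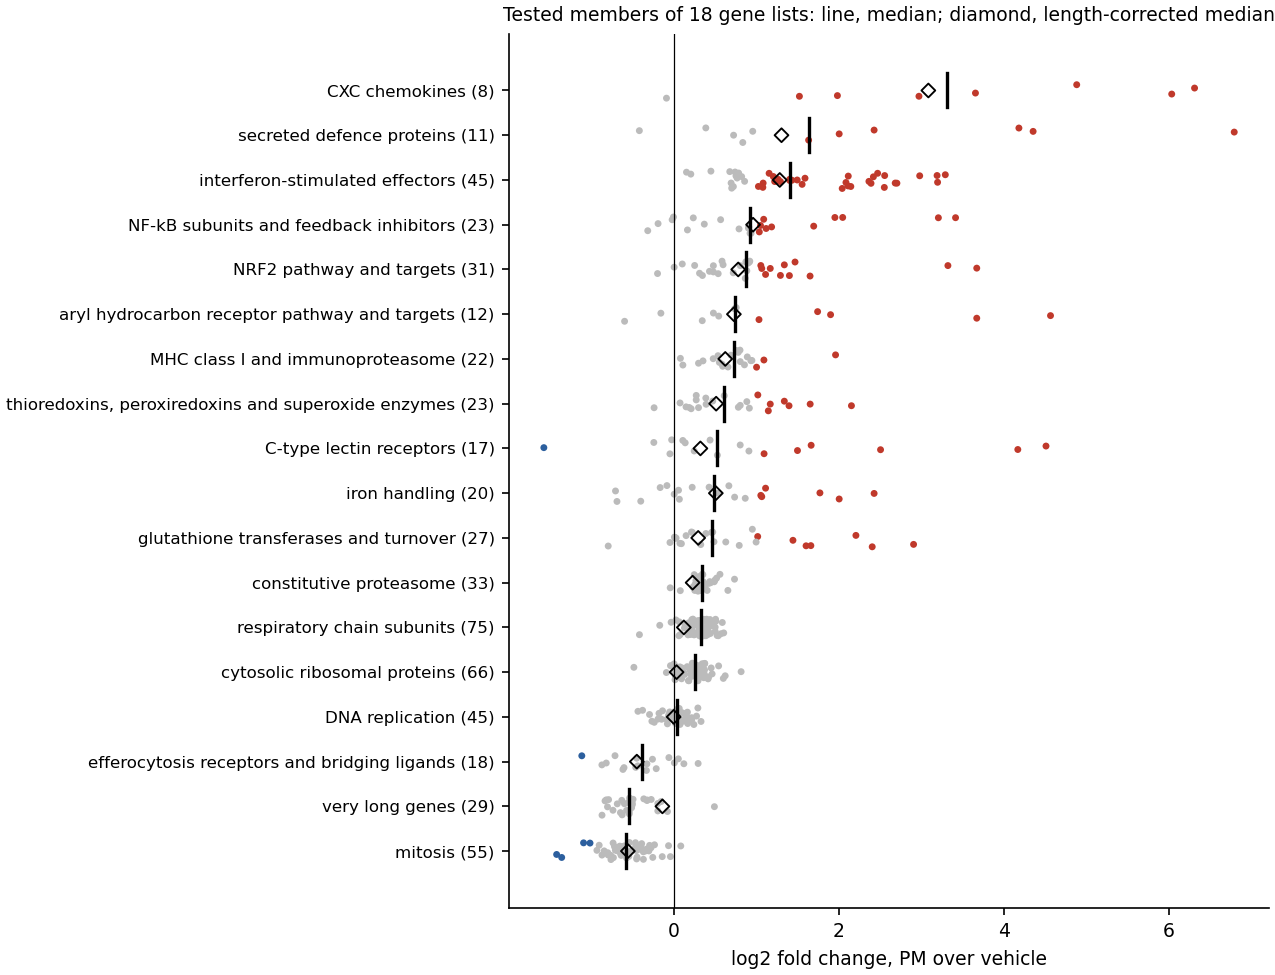
Log2 fold change, PM over vehicle, of every tested member of 18 gene lists, with the number tested in brackets; red and blue points are higher and lower DEGs, grey points other genes, the black line is the list's median and the open diamond its median after correction for exonic length. CXC chemokines (median 3.31), secreted defence proteins (1.63) and interferon-stimulated effectors (1.41) lie farthest right. Of their tested members 4 of 8, 5 of 11 and 4 of 45, in that order, passed the filter only through the PM libraries and so had to be higher. Mitosis (-0.58) and very long genes (-0.54) lie farthest left, and the diamond departs most from the line in the very long genes (-0.14).

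Of 29 heat shock and ER chaperones 16 were higher and 1 lower at adjusted p of 0.05 alone, and 2 were DEGs. Hspa1b and Hspa1a, the inducible HSP70 genes, rose from 0.669 and 0.790 to 9.12 and 8.65 CPM and from 0.803 and 0.586 to 7.07 and 7.90 CPM. They are near-identical copies, so reads may be shared between them, and both passed the filter only through the PM libraries. Hsp90b1, an ER chaperone, was at 1270 and 1251 against 1734 and 1807 CPM. Of 23 genes of the ATF4 integrated stress response Slc7a11, Cebpb (2.51-fold) and Nupr1 (2.12-fold) rose, the DEGs of the list numbering 5 without PM replicate 1. Nupr1 was not a DEG without vehicle replicate 1 (adjusted p = 0.079) or PM replicate 2 (0.060), or with total count scaling (log2 fold change 0.996). Atf4 was at 175 and 189 against 192 and 219 CPM (adjusted p = 0.31). Sqstm1 (p62), an autophagy receptor, was the only DEG of 28 autophagy genes (508 and 515 against 1214 and 1293 CPM), Ctsk (cathepsin K) the only one of 41 lysosomal genes (2.56-fold higher), and none of 17 V-ATPase subunits or 22 p53 targets was, beside 3.82% of all tested genes. Ctsk is also on the osteoclast marker list, whose summed level was 86.3 and 87.2 CPM after vehicle and 137 and 159 CPM after PM. Of its 6 members 3 were tested, Ctsk, Acp5 (log2 fold change 0.91, adjusted p = 5.0e-05, under 2-fold) and Dcstamp (-0.00). Of the others Calcr had 0 counts in all 4 libraries and Oscar at most 3. Ocstamp was lower, with 15 and 13 counts after vehicle and 6 and 5 after PM. Without PM replicate 1 the DEGs of the lysosomal list and of the osteoclast list each numbered 2. The part of osteoclast-like cells in the level of Ctsk was not tested.

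Acss2, which makes acetyl-CoA from acetate, rose from 5.06 and 5.46 to 35.4 and 35.8 CPM (2.76 ± 0.08). It was the only DEG of 31 genes of cholesterol and fatty acid synthesis (3.23%), beside 3.82% of all tested genes. It overlaps Gss and Ggt7. Slc2a6, a lysosomal hexose transporter, rose from 6.05 and 6.68 to 29.2 and 35.8 CPM. It was the only DEG of 41 genes of glycolysis and HIF-1 targets (2.44%), beside 3.82% of all tested genes. The median of this list was 0.01. Among 26 genes of the TCA cycle and its side branches Acod1 and Pcx (pyruvate carboxylase; 3.24 and 2.75 against 8.43 and 8.97 CPM) rose. Ass1, which recycles citrulline to arginine, rose from 1.29 and 1.53 to 21.1 and 19.7 CPM, while Mrc1, the mannose receptor, was at 458 and 402 against 287 and 233 CPM (-0.73 ± 0.16), under 2-fold. Fabp3, a fatty acid carrier, rose 2.40-fold and passed the filter only through the PM libraries. It was the only DEG of 30 LXR and PPAR genes (3.33%), beside 3.82% of all tested genes.

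Of 25 macrophage identity genes 4 rose, Trem1 (2.57-fold), Csf2rb (232 and 225 against 596 and 527 CPM), Cebpb and Csf1. Gpnmb, a lysosomal glycoprotein and one of the most abundant messages, was at 13676 and 13444 against 18608 and 17880 CPM. Spp1 (osteopontin) was at 14896 and 15580 against 10565 and 12633 CPM, an adjusted p of 0.021 at a change under 2-fold. Icam1, the ligand of leukocyte integrins, rose from 27.0 and 27.9 to 85.7 and 91.0 CPM and Gpc1, a heparan sulfate proteoglycan, from 48.1 and 47.7 to 131 and 125 CPM, 2 of 3 rises among 21 adhesion, cytoskeleton and secreted matrix genes. In the same list Dab2, an endocytic adaptor, fell from 781 and 794 to 388 and 348 CPM.

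Decreases were smaller than increases. Nptx1, a neuronal pentraxin, fell from 81.8 and 87.7 to 17.9 and 15.7 CPM, a log2 fold change of -2.34 ± 0.13 (adjusted p = 1.5e-06). Smpd3, a neutral sphingomyelinase, was at 10.1 and 8.11 against 2.28 and 1.93 CPM, and Angpt1, a ligand of the endothelial receptor TIE2, at 10.4 and 9.94 against 2.62 and 2.31 CPM. Slco2b1, an organic anion transporter found on resident macrophages, was at 60.2 and 58.5 against 13.9 and 17.3 CPM. The PM libraries were below the vehicle libraries in every one of these by more than the duplicates differed. Tox2, Lama3 (laminin), Rasgrp3, Fcrls, Hdac9 (a histone deacetylase), Psd3, Fgf13 and Cenpf completed the 12 largest decreases, with folds between 3.57 (Tox2) and 2.67 (Cenpf). Smpd3, Angpt1, Slco2b1, Lama3 and Psd3 share exonic bases with other annotated genes.

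Receptors for dead cells were lower in part, with 11 of 18 efferocytosis receptors and bridging ligands lower at adjusted p of 0.05 alone, beside 12.5% of all tested genes, and 1 of them, Stab2, a DEG. Without PM replicate 1 the DEGs numbered 3 and without PM replicate 2 there were 0. The median was -0.38. Lrp1, a receptor for calreticulin on dying cells, was at 2271 and 2031 against 1455 and 987 CPM (-0.82 ± 0.25, adjusted p = 0.039), with the PM duplicates far apart, and became a DEG without PM replicate 1 (-1.12). Stab1 was at 1045 and 967 against 795 and 694 CPM. Both are long genes, with 17717 bp (Lrp1) and 10288 bp (Stab1) of exons, and the list's median was -0.45 after correction for length.

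Cell cycle genes are given as lists of mitosis and of DNA replication genes, and the difference between these lists was not tested. Of 55 mitosis genes 46 were lower at adjusted p of 0.05 alone and 4 were DEGs, with a median log2 fold change of -0.58, while of 45 DNA replication genes 3 were lower, none was a DEG, and the median was 0.04. Cenpf, Aspm, Knl1 and Cenpe, proteins of the kinetochore and spindle pole, were the 4 DEGs. Aspm was at 35.2 and 33.7 against 15.8 and 11.1 CPM, Mki67, the proliferation antigen, at 334 and 323 against 198 and 162 CPM (-0.87 ± 0.15), and Top2a at 280 and 278 against 189 and 176 CPM (-0.61 ± 0.10). Without PM replicate 2 Cenpe (-0.89) and Knl1 (-0.81) were not DEGs, Cenpe also not without vehicle replicate 1 (-0.98), and without PM replicate 1 the mitosis DEGs numbered 6, Mki67 among them. The replication gene Mcm6 was at 198 and 205 against 190 and 199 CPM and Pcna at 341 and 333 against 239 and 280 CPM (-0.38 ± 0.08). All 4 mitosis DEGs lie in the longest of 5 length classes of equal size, and after correction for length 2 remained, while the list's median was -0.55. Ccnd2 (cyclin D2) fell 2.26-fold, and Cdkn1c, a CDK inhibitor, rose 2.06-fold but was not a DEG without vehicle replicate 1 (0.98) or PM replicate 2 (0.92), or with total count scaling (0.95).

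Exonic length, the summed length of all exons of a gene in GENCODE M21, moved with the PM effect. Across 10967 genes with a length the Spearman rho between length and log2 fold change was -0.472, given as a description since the genes share libraries. In 5 length classes of equal size the median log2 fold change ran from 0.22 in the shortest genes (57 to 2544 bp) through -0.00 in the middle class to -0.23 in the longest (7639 to 123179 bp). Higher DEGs numbered 117, 79, 47, 41 and 18 from the shortest to the longest class, and lower DEGs 13, 11, 21, 30 and 41. The median length was 3091.5 bp for higher DEGs, 6404 bp for lower DEGs and 4507 bp for all tested genes.

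The slope was not the same in the 2 PM libraries. The shortest class exceeded the longest by 0.23 in PM replicate 1 and by 0.65 in PM replicate 2, each against the mean of the vehicle libraries, and rho with length was -0.318 and -0.548. Duplicates with the same treatment differed along length too, with rho of -0.61 between PM replicate 2 and PM replicate 1 and of -0.289 between vehicle replicate 2 and vehicle replicate 1. The longest class of genes held 21.2% and 20.6% of counts after vehicle and 18.2% and 15.6% after PM. Without PM replicate 1 the lower DEGs rose from 117 to 231, 109 of them in the longest class, and without PM replicate 2 there were 94, with 27 in that class. Mitochondrial genes held 1.64% and 1.67% of counts after vehicle and 1.46% and 1.32% after PM, whose part in the slope was not tested.

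**Figure D4:**
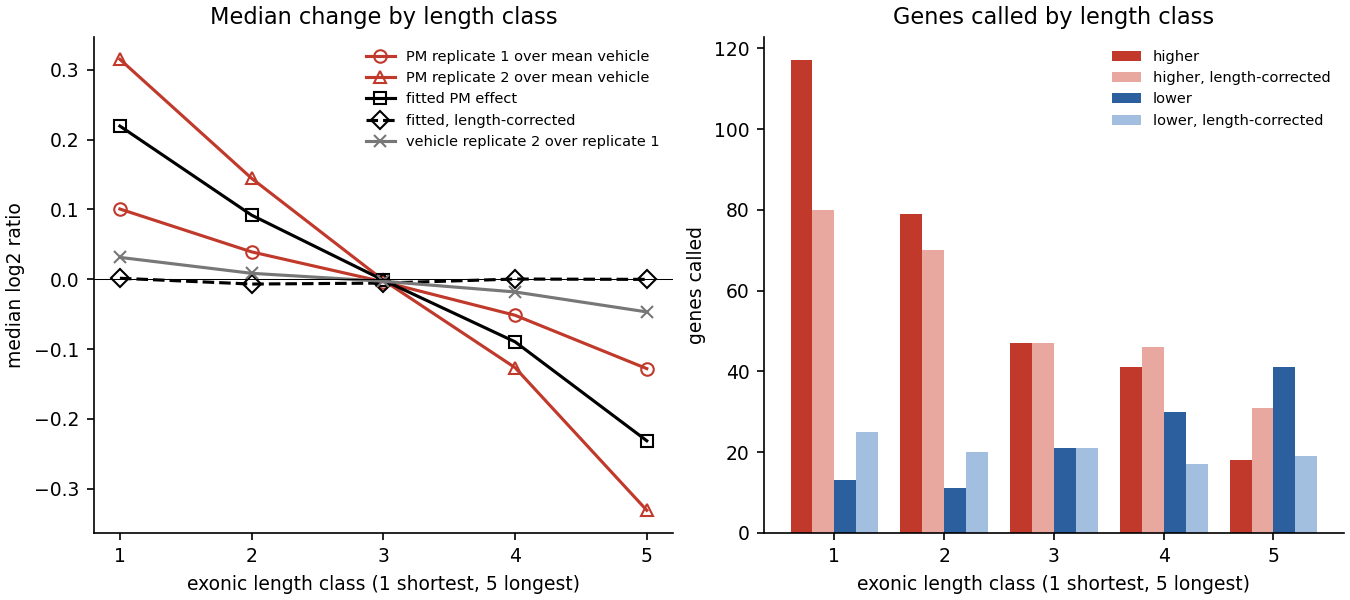
Left, the median log2 ratio of genes in each exonic length class (1 shortest, 5 longest) for each PM library over the mean vehicle, for the fitted PM effect before and after length correction, and for vehicle replicate 2 over replicate 1; right, the number of DEGs in each class before and after correction. The lines fall with length in PM replicate 2 (0.32 to -0.33) more than in PM replicate 1 (0.10 to -0.13), and correction moves higher DEGs of the shortest class from 117 to 80 and lower DEGs of the longest class from 41 to 19.

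With a smooth trend on length removed from each library, 377 genes were DEGs, 274 higher and 103 lower, of which 336 were DEGs without the correction too, so that 83 were lost and 41 gained. Among the large changes after correction were Slpi (6.51), Acod1 (6.20), Marco (5.48) and Nptx1 (-2.30). Of the named DEGs Hmox1 (0.90), Cd74 (0.91), Taldo1 (0.86), Psme2 (0.88), H2-K1 (0.89), Batf (0.86), Fabp3 (0.96), Cdkn1c (0.85), Nupr1 (0.93), Dab2 (-0.97), Ccnd2 (-0.99), Stab2 (-0.94), Knl1 (-0.93) and Cenpe (-0.85) went under 2-fold. Gm23935, a 57 bp transcript at 3.13 and 6.22 against 25.1 and 7.50 CPM, stayed above 2-fold (1.80 to 1.58) but had an adjusted p of 0.073 after correction; it also lost its call without either vehicle library (1.39 and 2.38), without PM replicate 1 (0.68) or in a fit on 4 libraries. Other large losses were Mef2c (-1.23 to -0.89) and Lifr (-1.22 to -1.0), and the largest gains were the exporter Abcc1 (0.87 to 1.20), Tnip3 (0.92 to 1.16) and Rnf213 (0.82 to 1.15, a DEG without PM replicate 2 as well at 1.14). Such a correction cannot spare a real change that follows length.

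Lists of short or long genes moved with length. The 66 cytosolic ribosomal protein genes tested, with a median length of 2017 bp, had a median log2 fold change of 0.26 and no DEG; it was 0.08 in PM replicate 1 and 0.42 in PM replicate 2, and 0.04 after correction. Rps3 was at 582 and 598 against 624 and 820 CPM. The other 13 of 79 did not pass the filter, among them Rpl19, a gene that every cell uses, named after its counts were seen, with 20 and 33 counts after vehicle and 23 and 26 after PM, so the counts of this family may be incomplete. The 75 respiratory chain subunits went from 0.33 (0.17 in PM replicate 1 and 0.47 in PM replicate 2) to 0.12 after correction (Atp5b at 733 and 764 against 808 and 913 CPM), and the 33 constitutive proteasome subunits from 0.35 (0.23 and 0.45 in the same order) to 0.23 (Psmd8 at 316 and 334 against 389 and 450 CPM). The 29 very long genes went from -0.54 (-0.26 in PM replicate 1 and -0.83 in PM replicate 2) to -0.14, with 0 DEGs but 8 without PM replicate 1, and Ahnak at 846 and 760 against 619 and 443 CPM. The interferon-stimulated effectors had 29 and the NRF2 list 10 higher DEGs after correction, with medians of 1.28 and 0.78; 29 and 8 of these were higher DEGs without the correction too, as were all 7 CXC chemokines.

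The PM effect was also measured in Acod1-/- BMDMs, in 2 vehicle and 2 PM libraries that are not part of the WT comparison but share its spread estimate. All 419 WT DEGs had the same direction there, as did 9496 of 10980 tested genes, and 361 were DEGs in both genotypes, which is 86.2% of the WT DEGs and 79% of the 457 (4.16% of tested genes) in Acod1-/- cells. No gene differed in its PM effect between genotypes at adjusted p of 0.05 by edgeR's interaction test, where 265 genes (2.41%) had an unadjusted p under 0.05. DESeq2 gave an adjusted p of 0.05 or less to 4 genes, none with a 2-fold difference. The smallest p belonged to Gbp2, which rose from 13.9 and 13.6 to 111 and 98.5 CPM in Acod1-/- cells (difference of log2 fold changes, WT minus Acod1-/-, -0.78 ± 0.12, unadjusted p = 1.1e-04, adjusted p = 0.9999). Serpinb1a, an elastase inhibitor, followed (0.94 ± 0.18) and then Mmp8 (-0.67 ± 0.14). Acod1 counts, taken over the whole gene, went from 1.26 and 1.22 to 107 and 94.2 CPM in the Acod1-/- libraries; where the deletion lies is not given in the sources used here, so these counts do not check the genotype. The length slope was present in Acod1-/- cells too, with a rho of -0.414.

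**Figure D5:**
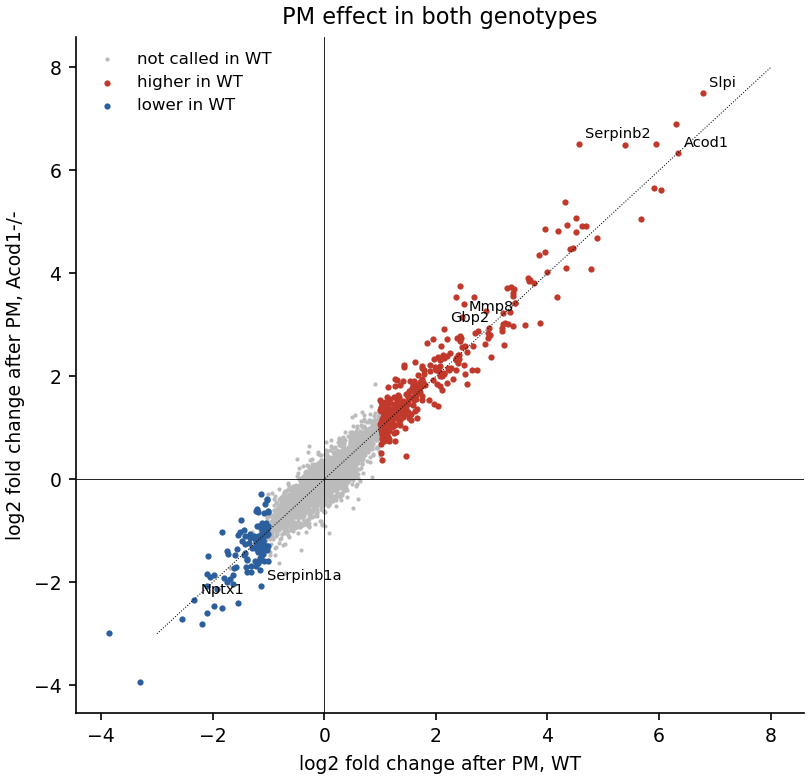
Log2 fold change after PM in WT (horizontal) and Acod1-/- (vertical) BMDMs for the 10980 tested genes; red and blue points are the 302 higher and 117 lower DEGs in WT, grey points other genes, and the dotted line marks equal change. The points follow the dotted line, with all 419 WT DEGs in the same direction in both genotypes.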

How the data were processed

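Single-end reads of 50 bp from BMDM RNA were checked with FastQC 0.11.5 and mapped to GRCm38 with STAR 2.5.3a, with Picard 2.9.0 for quality, per the submitters' processing notes and the study's methods. The authors deposited raw counts of reads on each gene from featureCounts, with no normalization or filter. The annotation release and the handling of strand and multi-mapping reads are not given in the sources used here. Each library's group came from its label.

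Genes above 1.5 CPM in at least 2 of the 4 WT vehicle and PM libraries were tested. Counts were TMM-scaled and fitted in edgeR 4.0.16 (R 4.3.3) by its quasi-likelihood method over 12 libraries with 6 group means, with Benjamini-Hochberg adjustment over all genes tested. A DEG had an adjusted p within 0.05 and differed at least 2-fold. SE is the size of the log2 change over the root of the F statistic. Ratios of single libraries used log2 of CPM plus 0.5. Length correction entered a lowess curve (span 0.3) of each library on log2 exonic length as an offset.

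The genes and lists were chosen with earlier results of these data known, so no list was tested as a set. Named genes are the 12 largest increases and decreases with a mean of at least 5 CPM, up to 4 DEGs and 2 abundant other members per list, 7 reference genes, the 3 largest losses and gains under length correction and the 3 smallest interaction p-values; others are said to be named after their values were seen, except cell type markers. Some genes that this rule names are not reported here. The tests were tried on simulated counts. DESeq2 1.42.0, other scalings and filters, a test against 2-fold (glmTreat), a replicate block and single libraries left out were the alternatives.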

Additional observations from a re-analysis of the deposited data

How the results depend on the processing

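Of the 122 DEGs named, none changed direction in any alternative run, 101 stayed DEGs in all of them except the glmTreat test against a 2-fold change, and 85 in all. The number of DEGs (419) was 639 with a filter of 10 counts in total, 278 with a filter in all 4 libraries, 180 by glmTreat and 2744 at adjusted p alone. Higher DEGs (302) were 161 by glmTreat and 1373 at adjusted p alone. Lower DEGs (117) were 193, 75, 19 and 1371 under the same 4 settings, in that order. Filters and thresholds change these counts by construction. With each library left out in turn the DEGs numbered between 367 and 540, the higher ones between 273 and 309, and the lower ones between 94 (without PM replicate 2) and 231 (without PM replicate 1); an arm with 1 library was assumed to vary like the other groups. List members called (158 counted over all lists) were 92 by glmTreat and 519 at adjusted p alone. DESeq2 on 12 libraries called 425 genes, 416 of them shared. The gap in median log2 fold change between the shortest and longest length classes of genes (0.45) was 0.0017 with length correction and 0.0018 with length correction and the replicate block. Labels give the duplicates of every group the numbers 1 and 2, but 2 pairs do not show a pairing. Deviations of same-numbered libraries from their group means correlated at 0.288, and with a replicate block 425 genes were DEGs, 418 of them shared. With 2 libraries per group an SD is imprecise, and genes with few counts after vehicle have imprecise folds.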
